A study of Mus musculus with 3 samples.

Results

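The regions described here are the Runx3 peaks of resting splenic natural killer cells (NKC) in which the RUNX consensus was not found. A peak was a member when TGYGGY (Y is C or T), the 6-base sequence that RUNX proteins are known to bind, matched neither strand anywhere in its mm9 sequence. Of 15524 Runx3 peaks, 1045 (6.73%) met this rule and 14479 held at least 1 match. The rule used sequence only, and neither the H3K4me1 list nor gene annotation entered it. All 3 samples came from freshly isolated NKC of ICR mice, fixed in 1% formaldehyde and sheared to fragments near 300 bp. The DNA sequence of these mice was not read, so places where it departs from mm9 are unknown here. Chromatin was precipitated with a home-made polyclonal Runx3 antibody, a monoclonal H3K4me1 antibody or non-immune rabbit serum (NIS), with 1 sample each. The labels give NKp46 as the sorting marker and the study's methods give DX5. The deposited lists held coordinates alone (15524 Runx3 peaks and 49902 H3K4me1 regions), so the height of a peak, the NIS signal and the read depth at a region are unknown here, and no value below has a spread between replicates. Intervals are 95% intervals that cover counting error over peaks, and peaks are not biological replicates.

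Runx3 is one of the mammalian RUNX transcription factors, which contact DNA through the Runt domain as a heterodimer with the partner protein Cbfb. In lymphocytes RUNX factors often occupy enhancers and promoters together with ETS, T-box and AP-1 family factors, and Runx3 is known for its part in cytotoxic T cells and NKC. A ChIP-seq peak marks chromatin that was cross-linked to the protein, directly or through other proteins, and therefore need not hold the protein's own sequence. H3K4me1, monomethylation of histone H3 at lysine 4, is typical of enhancers and of the regions beside active promoters.

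The sequences below are examples of the searched sequences within such peaks, picked because they hold a match and cut around the one nearest the midpoint, which in the Ifng peak was 180 bp away. Each line is 30 bases of the plus strand of mm9, read 5′ to 3′. Capitals mark, on either strand, the ETS sequence MGGAAGT (M is A or C) and 3 of the sequences 1 base off the consensus, TGYGGG, AGYGGY and TGAGGY. The first 8 lines are from peaks at genes of the NK cell, cytokine receptor and JAK-STAT, RUNX and ETS lists. The last 5 show an ETS core adjoining a 1-base-off sequence.
Runx3 intron, chr4:134709764-134709793: CCCACActctcaACCTCAGCGGCtgaagtg
Zbtb7b promoter, chr3:89195726-89195755: tccccagcacccACTTCCGgtgtcccaaac
Jak1 promoter, chr4:100858069-100858098: atacaaaacaacAGGAAGTgggacacatgt
Upstream of Ifng, chr10:117872948-117872977: gttccctgcccaTGTGGGacgccaagacca
Upstream of Klrb1c, chr6:128743245-128743274: tataccacctttCCCACAtcctacataggg
Il12rb2 intron, chr6:67317328-67317357: gtgactcatctcGCCTCAgcttccagccac
Runx1 intron, chr16:92641468-92641497: aacaaacaaaacAGTGGTttggtggcatgg
Elf1 intron, chr14:79935383-79935412: caggcttggtctAGCGGTtttttctcaccc
Near Snx18, chr13:114397234-114397263: cgtaaccaggaaCGGAAGTGGTctctgcag
Near Zscan2, chr7:87977296-87977325: aagcaagctgaaAGGAAGTGGTggtggggg
Near Gm10797, chr10:67166055-67166084: tttaggcaagacAGGAAGTGGCcaagaagt
Tsga14 promoter, chr6:30643538-30643567: ccgggcggCGGAAGTGGCcggctgttcgtc
Exoc4 intron, chr6:33568721-33568750: ggtggtaacggcTGTGGGAGGAAGTgatgg

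Peaks without the consensus were narrower and richer in CpG than the other Runx3 peaks. Their median width was 708 bp, with the middle 50% between 598 and 821 bp and extremes of 355 and 2338 bp, against 834 bp (706 to 978 bp) in the peaks with the consensus. Median GC content was 52.0% against 50.7%, and the median CpG density was 2.64 against 1.72 per 100 bp. A wide sequence holds a given 6-base word more often than a narrow one, so part of the width difference follows from the rule itself. When all Runx3 peaks were divided by width into 5 classes of equal number, the share without the consensus was 13.3% in the narrowest class and 1.35% in the widest. Equally wide windows 5 kb downstream that overlapped no Runx3 peak lacked the consensus more often in every class, from 37.2% in the narrowest to 12.0% in the widest. Over all widths, 24.5% of the 14505 downstream windows and 25.8% of the 14537 upstream windows lacked it. Here and below, flanking windows were matched to the peaks in width and not in base content or distance from a TSS. Even in the narrowest class, most peaks and most windows held the consensus.

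**Figure D1:**
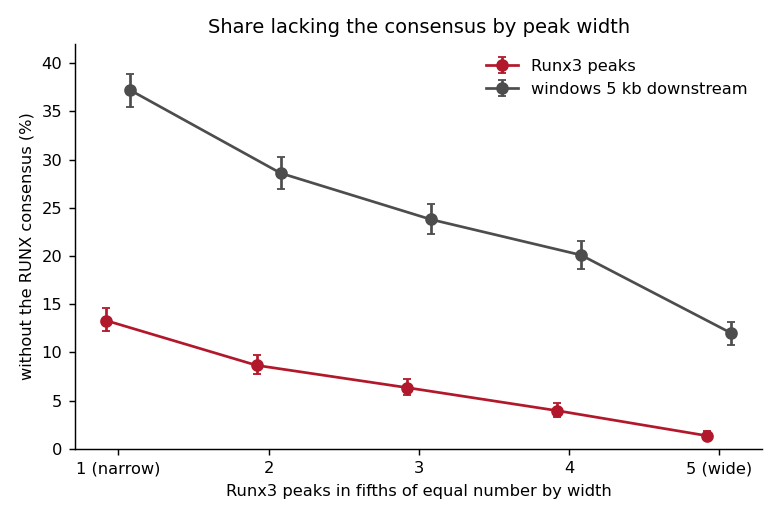
The vertical axis gives the percentage of sequences without TGYGGY, for Runx3 peaks (red) and for equally wide windows 5 kb downstream (grey), in 5 width classes from narrow to wide, with 95% Wilson intervals. Both shares fell with width, and the peaks lay below the windows in each class (13.3% against 37.2% in the narrowest, 1.35% against 12.0% in the widest).

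Extending the search beyond the peak found the consensus about as often as next to any consensus-free window. It lay within 50 bp outside an edge in 189 members (18.1%, interval 15.9 to 20.5%), within 100 bp in 318 (30.4%) and within 200 bp in 519 (49.7%). For the 626 flanking windows of members that also lacked the consensus, the shares were 17.1% (14.3 to 20.2%), 27.5% and 45.8%. The intervals of peaks and windows overlapped at each of these distances. Just past the threshold of the rule were 3043 peaks with exactly 1 match, whose median width was 753 bp and whose median CpG density was 1.89 per 100 bp. On both measures they lay between the members and the 3815 peaks with 2 matches (799 bp and 1.69 per 100 bp). Only 2 members contained an unread base, and 7 members (0.670%) had a near-identical copy elsewhere in mm9, against 0.601% of the other peaks.

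Peaks without the consensus lay more often at transcription start sites (TSSs). Of the 1045 members, 506 (48.4%, interval 45.4 to 51.5%) had their midpoint under 1 kb from a TSS, compared with 38.4% of the other peaks and 39.1% of all Runx3 peaks. The difference was 9.98 percentage points (6.86 to 13.1) and stayed at 6.23 points (3.90 to 8.56) after members and other peaks were compared within classes of equal width and GC content. The share was lower at 5 to 50 kb from a TSS, with 29.0% of members and 37.0% of the others (standardised difference -5.41 points, interval -8.13 to -2.70). Between 1 and 5 kb (14.4% against 15.9%) and beyond 50 kb (8.23% against 8.67%) the intervals of the standardised difference included 0. The median distance from a TSS was 1.23 kb in members and 3.60 kb in the other peaks. The 506 members near a TSS are referred to as proximal in the following, and the remaining 539 as remote.

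Of the proximal members, 383 (75.7%, interval 71.8 to 79.2%) were CpG-rich, against 69.7% of other proximal peaks, where CpG-rich means GC above 50% with an observed over expected CpG ratio above 0.6. For 471 of the 506 (93.1%) the nearest TSS belonged to a protein-coding gene, a share close to the 92.4% of other proximal peaks. The midpoint was upstream of that TSS in 66.8% (62.6 to 70.8%) of proximal members and in 59.2% (57.9 to 60.5%) of other proximal peaks. By midpoint, 43.8% of all members were intergenic, 36.8% in introns and 15.0% in exons annotated as untranslated, the last against 10% of the other peaks. Coding exons held 2.20% of members and 4.15% of the other peaks. Over all distances 410 members (39.2%) and 28.6% of the other peaks were CpG-rich. This difference was 6.03 points (4.08 to 7.99) within classes of width and GC.

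Most members carried H3K4me1, and fewer did so than among the other Runx3 peaks. An H3K4me1 region overlapped 949 members (90.8%, interval 88.9 to 92.4%), against 96.0% of the peaks with the consensus and 95.7% of all Runx3 peaks. The difference was -5.21 points (-7.14 to -3.57). Within classes of width and GC it was -2.84 points (-4.45 to -1.22), and against the peaks with exactly 1 match, of which 93.9% overlapped, it was -3.07 points (-5.14 to -1.23). The midpoint itself was inside an H3K4me1 region in 792 members (75.8%), compared with 84.2% of the others and 83.6% of all peaks. The standardised difference at the midpoint was -7.02 points (-9.34 to -4.70).

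The difference in overlap was larger away from TSSs. Among remote members, 481 of 539 (89.2%) overlapped H3K4me1 and 87.2% did so at the midpoint, against 96.3% and 95.3% of remote peaks with the consensus. Among proximal members the values were 92.5% for any overlap and 63.6% at the midpoint, against 95.7% and 66.4%. Low plain shares at the midpoint were thus common to proximal peaks with and without the consensus. Standardised over width and GC, the difference in overlap was -4.59 points (-6.84 to -2.34) in remote and -1.16 points (-3.58 to 1.26) in proximal peaks. The gap between these 2 differences was -3.43 points, and its interval (-6.73 to -0.124) only just excluded 0. At the midpoint the standardised differences were -5.54 points (-7.93 to -3.15) in remote and -6.95 points (-11.1 to -2.79) in proximal peaks. The gap between them was 1.41 points (-3.39 to 6.20), an interval that included 0.

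The 96 members without any H3K4me1 overlap consisted of 38 proximal and 58 remote peaks. An H3K4me1 region began within 2 kb on both sides of 19 of them (19.8%), and 52 (54.2%, interval 44.2 to 63.8%) had none within 2 kb on either side. These shares were close to the 19.6% and 53.8% of the 576 unmarked peaks with the consensus. Where the midpoint was marked, it lay at a median of 0.581 of the way from the edge to the centre of its H3K4me1 region in members and 0.669 in the other peaks. By class the median position was 0.709 in remote members and 0.736 in other remote peaks, and 0.307 and 0.373 in proximal peaks. Among peaks with any H3K4me1 overlap, the widest overlapping region had a median width of 2971 bp in members and 3526 bp in the others. For remote peaks alone these widths were 4915 and 4611 bp.

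**Figure D2:**
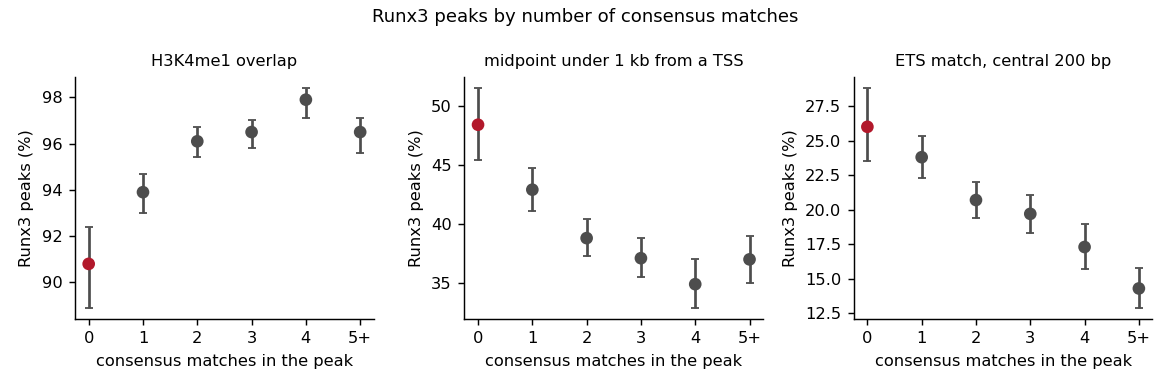
Each panel gives the percentage of Runx3 peaks with H3K4me1 overlap (left), with the midpoint under 1 kb from a TSS (middle) or with an ETS match in the central 200 bp (right), by the number of consensus matches in the peak from 0 (red, the members) to 5 or more, with 95% Wilson intervals and vertical axes that do not start at 0. H3K4me1 overlap was lowest at 0 matches (90.8%) and highest at 4 (97.9%), and the other shares were highest at 0 (48.4% and 26.0%).

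Across the whole list the same measures changed with the number of matches, with the members at one end. H3K4me1 overlap was 90.8% with 0 matches, 93.9% with 1, 96.1% with 2, 96.5% with 3 and 97.9% with 4. The proximal share was 48.4%, 42.9%, 38.8%, 37.1% and 34.9% in the same order. An ETS match in the central 200 bp was found in 26.0%, 23.8%, 20.7%, 19.7% and 17.3%. With 5 or more matches these shares were 96.5%, 37.0% and 14.3%, so the first 2 did not continue their course there. Median width rose from 708 bp at 0 matches to 898 bp at 4 and 1030 bp at 5 or more, so these shares were not free of width.

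Sequences of 19 other factors or factor families were searched on both strands. The letters searched were MGGAAGT for ETS, CCGGAAGT for ETS with a CpG, GGGCGG for the SP/KLF GC box, CCAATSR for NF-Y (S is C or G, R is A or G), ACTACAA for ZNF143 and CCACACCC for the CACCC box. They were TGASTCA for AP-1, GGTGTGA for T-box, CACGTG for the E-box, TGACGTCA for CRE, GCGCATGC for NRF1 and AAGATGGC for YY1. The remaining ones were TTTSGCGC for E2F, WGATAR for GATA (W is A or T), TTCNNNGAA for STAT and CTTTGAW for TCF/LEF, beside ISRE, NF-kB and CTCF consensus sequences given by name. ETS with a CpG is contained in ETS, a GC box followed by C or T holds the 1-base-off sequence GGYGGY, and none of the others holds the consensus. In 5 of the 19 the standardised difference between members and other peaks had an interval above 0, and in 1 below 0. With 19 intervals at 95%, about 1 could exclude 0 with no difference present.

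ETS had the largest excess after standardisation over width and GC, while the GC box had the larger plain excess (7.04 points) and the larger one over width alone (11.6 against 8.45 points). ETS matched 468 members (44.8%, interval 41.8 to 47.8%), 337 of them once and 131 more than once, against 41.6% of the other peaks and 41.8% of all Runx3 peaks. The plain difference of 3.19 points had an interval (0.0966 to 6.33) that barely excluded 0, and it included 0 when chromosome X was left out, when the search for the consensus reached 100 bp further, or against peaks with exactly 1 match. Members are narrower, and within classes of width and GC the difference was 8.62 points (5.57 to 11.7). Of the 626 consensus-free flanking windows 15.0% held ETS, and of all flanking windows 21.4% did. The standardised excess was 7.54 points (3.09 to 12.0) in proximal and 9.56 points (5.36 to 13.8) in remote peaks, while the plain differences of 2.39 points (-2.06 to 6.93) and 4.04 points (-0.243 to 8.39) had intervals that included 0. ETS with a CpG was found in 8.52% of members and 6.58% of the others. By class it was in 15.0% of proximal and 2.41% of remote members, against 13.2% and 2.47% of other peaks.

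The other sequences in excess are known from promoters. The GC box, bound by SP and KLF zinc finger factors, was in 506 members (48.4%) and 41.4% of the other peaks, a standardised difference of 5.57 points (3.20 to 7.95). It occurred in 79.6% of proximal and 19.1% of remote members, close to the 76.9% and 19.2% of other peaks in these classes. The consensus-free windows held it in 9.42%. TSS class, in which members and other peaks differed, was not part of the standardisation. In the central 200 bp of proximal peaks the GC box was in 51.4% of members and 42.9% of the others (standardised difference 8.88 points, 4.53 to 13.2). NF-Y, the trimeric CCAAT-binding factor, matched 27.9% and 27.2%, or 4.23 points (1.52 to 6.94) more after standardisation, against 20.3% of the windows. Near the middle of proximal peaks the NF-Y difference was larger, with a match in the central 200 bp of 20.2% of proximal members and 13.9% of other proximal peaks (standardised difference 7.07 points, 3.81 to 10.3). Proximal peaks with the consensus away from the centre held NF-Y centrally in 17.0% and the GC box in 48.5%. Both shares were within the members' intervals (16.9 to 23.9% and 47.0 to 55.7%). In proximal peaks with exactly 1 match they were 14.9% and 45.0%, below these intervals. ZNF143, a promoter-bound zinc finger protein, differed by 1.72 points, with a lower bound of 0.0051. The CACCC box was the 1 sequence in deficit, with 4.40% against 11.6% (-5.52 points, -7.39 to -3.65). Its reverse strand followed by C or T contains TGYGGY, so the rule itself removes such matches.

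Sequences of AP-1, T-box and several other lymphocyte factors were less frequent in members, by differences that were not detectable once width and GC were held equal. AP-1 matched 12.7% of members and 16.8% of the other peaks (-4.08 points, -6.06 to -1.84), and T-box 12.7% and 17.0% (-4.29 points, -6.28 to -2.05). After standardisation the differences were -0.846 points (-3.00 to 1.31) for AP-1 and -0.733 points (-2.89 to 1.43) for T-box. STAT (0.870 points, -1.57 to 3.31), GATA (-1.0 points, -3.92 to 1.92) and TCF/LEF (-1.53 points, -4.07 to 1.02) also had standardised intervals that included 0, against plain differences of -3.42, -9.80 and -6.06 points whose intervals excluded 0. The E-box was lower by the plain difference (-3.96 points, -6.0 to -1.67) while its standardised interval included 0. Standardised intervals also included 0 for CRE, NRF1, YY1, E2F, ISRE, NF-kB and CTCF.

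**Figure D3:**
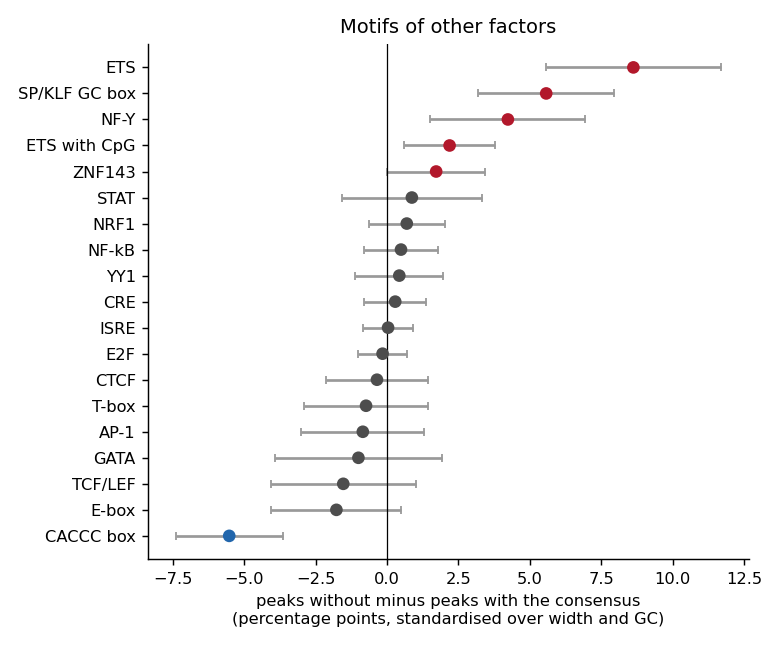
Points give the share of peaks with a match, members minus peaks with the consensus, in percentage points after standardisation over width and GC, for 19 motifs with 95% intervals. Red points have intervals above 0, led by ETS at 8.62 points, the blue point (CACCC box, -5.52 points) has an interval below 0, and grey points have intervals that include 0.

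ETS matches were concentrated at the middle of the peaks. In remote members the density was 1.72 per kb in the central 200 bp and 0.645 per kb in the rest of the peak, a ratio of 2.66 (2.15 to 3.29). In proximal members it was 1.48 and 0.538 per kb, a ratio of 2.75 (2.18 to 3.49). Peaks with the consensus had ratios of 2.43 and 2.17. The central 200 bp held ETS in 27.5% of remote members and 20.5% of other remote peaks, a difference of 7.97 points (4.44 to 11.5) after standardisation, and in 24.5% and 18.2% of proximal peaks (5.45 points, 1.73 to 9.16). Density thus rose towards the midpoint in peaks of both kinds, at a higher level in members than in all peaks with the consensus pooled. Peaks with exactly 1 match held ETS centrally in 25.6% of remote and 21.4% of proximal peaks. Both shares were within the members' intervals (23.9 to 31.4% and 21.0 to 28.4%). Peaks with the consensus away from the centre held it there in 22.6% and 19.5%, below these intervals. The members' ratio exceeded that of the others by a factor of 1.09 (0.883 to 1.35) in remote and 1.27 (1.00 to 1.61) in proximal peaks.

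Of the 5 sequences of other factors mapped by position, T-box, AP-1 and the GC box were, like ETS, placed centrally in remote members. The ratio of central to outer density in remote members was 3.36 (2.25 to 5.03) for T-box, 2.34 (1.54 to 3.53) for AP-1 and 2.07 (1.51 to 2.83) for the GC box. For other remote peaks it was 1.99, 1.53 and 1.39. The members' ratio was higher than that of the others by a factor of 1.69 (1.14 to 2.5), 1.53 (1.02 to 2.28) and 1.49 (1.09 to 2.03) in the same order. Counted by peak, however, a central match differed by 2.0 points (-0.401 to 4.41) for T-box and 1.16 points (-1.20 to 3.52) for AP-1 after standardisation, and by 2.54 points (0.320 to 4.76) for the GC box. The factors rest on 61, 48 and 77 central matches, and their intervals were not widened for the number of sequences. For NF-Y the factor was 1.25 (0.871 to 1.78).

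Sequences 1 base off the consensus were examined one change at a time. A change is written as the base of the consensus, its position counted from 1 at the 5′ end of TGYGGY, and the new base, so that Y6G is TGYGGG. Of the 16 possible changes, 10 had a central over outer density in remote members whose interval lay above 1, with a range of ratios from 0.897 to 2.31 and a median of 1.23. Y6G (TGYGGG) was the most concentrated, with 3.21 matches per kb centrally and 1.39 outside (ratio 2.31, 1.99 to 2.68). It was followed by T1A (AGYGGY) at 1.99 (1.73 to 2.28), T1G (GGYGGY) at 1.69 (1.46 to 1.94) and Y3A (TGAGGY) at 1.66 (1.42 to 1.93). G2A (TAYGGY) and Y6A (TGYGGA) had the lowest ratios, 0.897 (0.677 to 1.18) and 0.971 (0.757 to 1.24).

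Some of these sequences were more central in members than in the other peaks. In remote peaks the members' ratio exceeded that of the others 1.60-fold (1.38 to 1.86) for Y6G, 1.33-fold (1.15 to 1.53) for T1A and 1.33-fold (1.14 to 1.56) for Y3A. These 3 remained above 1 with intervals widened for all 32 comparisons, made up of 16 changes in 2 distance classes. In proximal peaks 0 of 16 did so. Counted by peak, so that a repeated match counts once, Y6G was in the central 200 bp of 227 remote members (42.1%) and 30% of other remote peaks, a standardised difference of 12.6 points (8.52 to 16.6). T1A was there in 47.9% against 36.1% (11.7 points, 7.47 to 15.9) and Y3A in 38.2% against 31.2% (8.09 points, 4.02 to 12.2). Remote peaks with the consensus away from the centre had Y6G centrally in 34.3% of 1914, and those with a central consensus in 28.9% of 6999. For T1A these shares were 37.1% and 35.8%, which left the members apart from both groups.

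**Figure D4:**
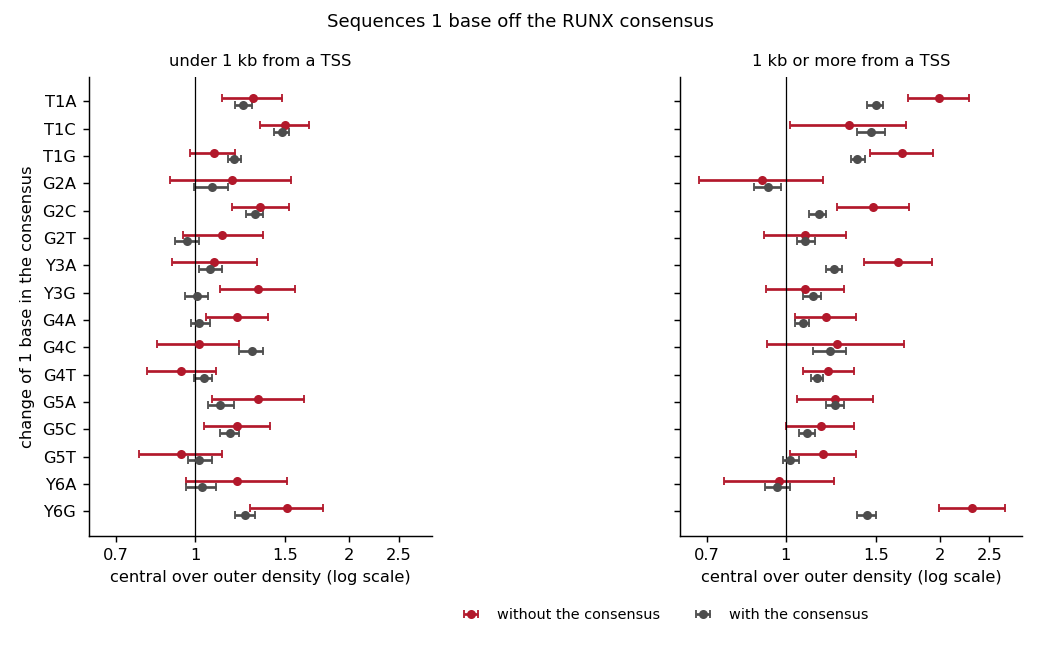
Points give the density of each 1-base change of the consensus in the central 200 bp over that in the rest of the peak, on a log axis, in peaks without (red) and with (grey) the consensus, for proximal peaks (left) and remote peaks (right), with exact 95% intervals. In remote peaks Y6G (2.31) and T1A (1.99) are furthest to the right in the members.

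Proximal members showed less of this. Their ratios ranged from 0.938 to 1.51, with a median of 1.21. The highest were Y6G at 1.51 (1.28 to 1.78) and T1C (CGYGGY) at 1.5 (1.34 to 1.67), and the corresponding ratios of other proximal peaks were 1.25 and 1.48. In the central 200 bp, CGYGGY was found in 56.7% of proximal members and 48.4% of the others (8.74 points, 4.31 to 13.2), whereas Y6G differed by 3.64 points with an interval (-0.764 to 8.05) that included 0. Proximal peaks with the consensus away from the centre held CGYGGY there in 53.3%, within the members' interval (52.4 to 61.0%). Those with exactly 1 match held it in 49.4%, below that interval.

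An ETS core that ran directly into AGTGG, which completes T1A only where C or T follows, was frequent in the middle of the members. GGAAGTGG, chosen after its letters had been seen among the commonest central words, was in the central 200 bp of 71 remote members (13.2%, interval 10.6 to 16.3%) and of 8.20% of other remote peaks (standardised difference 5.52 points, 3.07 to 7.96). It was there in 11.3% of remote peaks with exactly 1 match and in 11.3% of those with the consensus away from the centre, both within the members' interval. In proximal peaks it was in 8.50% and 5.66% (2.74 points, 0.406 to 5.07). Its density in remote members was 0.696 per kb centrally and 0.169 per kb outside, a ratio of 4.13 (2.82 to 6.09), against 3.56 in other remote peaks (factor 1.16, 0.793 to 1.7). T1A matches that were no part of GGAAGYGG kept a ratio of 1.79 (1.55 to 2.07) in remote members. The related GGATGTGG was rarer in members, with 4.45% against 7.18% of remote peaks, and the rule removes it wherever C or T follows. The stretches at Snx18, Zscan2, Gm10797 and Tsga14 printed above hold GGAAGTGG within a few bases of the midpoint of their peaks.

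**Figure D5:**
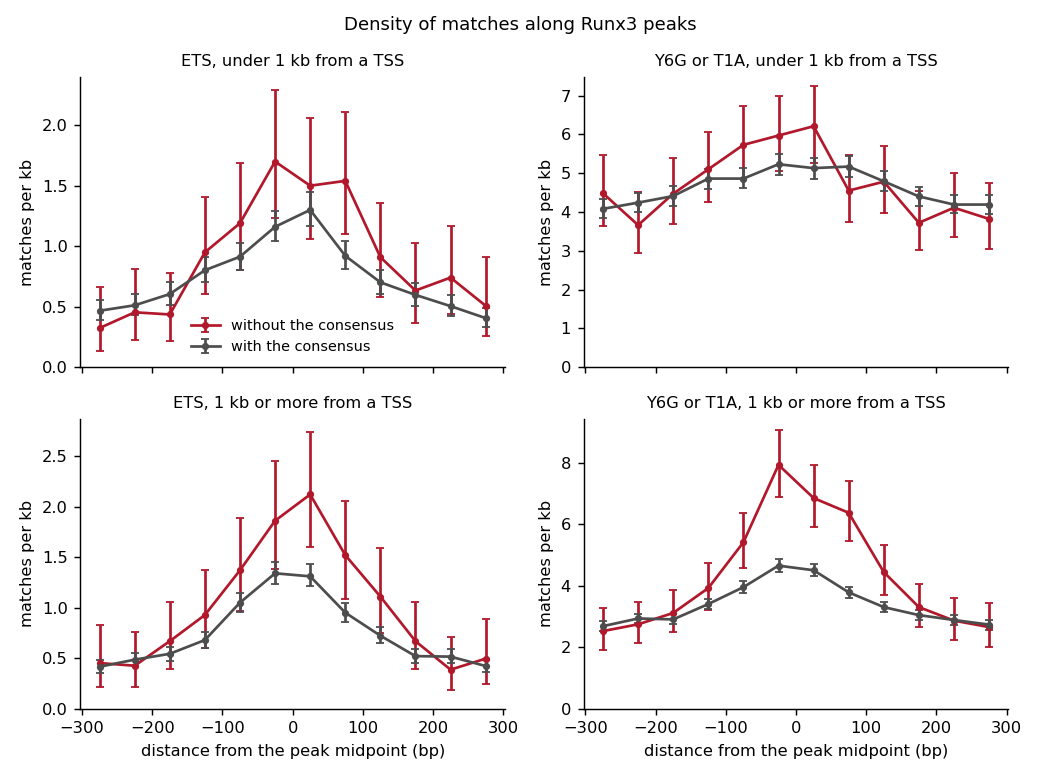
Density of ETS matches (left) and of Y6G and T1A matches together (right) per kb, in bins of 50 bp from 300 bp before to 300 bp after the midpoint, for proximal (top) and remote (bottom) peaks without (red) and with (grey) the consensus, with exact Poisson 95% intervals. In remote members ETS density was 2.12 per kb in the bin just after the midpoint and 0.496 per kb in the last bin.

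Y6G and T1A were also counted together. They were picked as the most central changes in these same remote members, so their shares are a description and the excess follows in part from that choice. At least 1 of these sequences, with its centre within 100 bp of the midpoint, was present in 393 remote members (72.9%, interval 69.0 to 76.5%) and 55.9% of other remote peaks. Either of them or ETS was present in 78.7% and 63.6%, and both in 22.6% and 13.1%. In proximal peaks the share with Y6G or T1A was 66.6% against 63.2%. Short sequences of this kind match often in any DNA, and 115 remote members (21.3%) had neither a Y6G or T1A nor an ETS match there.

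Genes were assigned where a peak touched the gene or lay within 5 kb of it. Among the 22350 genes that code for proteins, Runx3 peaks were assigned to 8889 (39.8%) and members to 1073 (4.80%). For 470 genes every Runx3 peak was a member, and 446 of these had a single peak. The member was under 1 kb from a TSS in 396 of the 470. The matching share of other genes with a single Runx3 peak is not given here, so this count is a description only. Members touched 12.1% of the genes with any Runx3 peak, which is the share against which the lists below are to be read.

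Of all genes with a Runx3 peak 12.1% had a member, and the NK cell lists lay on either side of this share, each on few genes. Of 28 receptor and adaptor genes, 26 had a Runx3 peak and 2 had a member, or 7.69% of those bound. These were Klrb1c, the gene of the NK1.1 receptor, and Klre1, a lectin-like receptor gene. The Klrb1c member (chr6:128743017-128743658) lay 4105 bp upstream of the TSS as 1 of 4 peaks, and the Klre1 member (chr6:129533065-129533577) was intronic and 1 of 6. Both were wholly covered by H3K4me1 and had 0 ETS matches. Of 21 effector, cytokine and chemokine genes, 18 had a peak and 3 a member (16.7% of those bound). Ifng, encoding interferon gamma, had 2 peaks, of which the member (chr10:117872327-117873238) was 5320 bp upstream of the TSS within a 3547 bp H3K4me1 region. Tnf and Lta, the neighbouring genes of tumour necrosis factor and lymphotoxin alpha, shared a single Runx3 peak (chr17:35337025-35337999), a member of 975 bp in a Tnf intron.

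Among 20 cytokine receptor and JAK-STAT genes, 17 were bound and 3 had a member. Jak1, a kinase of many cytokine receptors, had 8 peaks, and its member (chr4:100857681-100858519) was centred 45 bp upstream of a TSS with an ETS match 15.5 bp from the midpoint. This peak was inside an H3K4me1 region of 83618 bp. Stat3 had 2 peaks, with the member (chr11:100800276-100801395) centred 18 bp from the TSS and covered to 26.4% by H3K4me1, which did not reach its midpoint. Il12rb2, encoding a chain of the IL-12 receptor, had 4 peaks, and its member (chr6:67316973-67317694) was in an intron 8848 bp from the TSS with 0 ETS matches.

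The RUNX and lymphoid transcription factor list had 27 of 30 genes bound and 4 with members. Zbtb7b encodes ThPOK, the factor of the CD4 T helper lineage whose gene is a known target of Runx repression in cytotoxic T cells. Both of its Runx3 peaks were members, 1 (chr3:89197363-89197855) centred 9 bp from a TSS and the other (chr3:89195546-89195945) 245 bp from a Zbtb7b TSS, and the second had an ETS match 4.50 bp from its midpoint. Runx3 itself had 8 peaks and 1 member (chr4:134709333-134710228), centred 361 bp downstream of a TSS, with an ETS match 21.5 bp from the midpoint and 7.14% of its length under H3K4me1. Runx1 had 18 peaks and a 433 bp intronic member (chr16:92641270-92641702), with a consensus match that spanned or adjoined its edge. Bhlhe40, a basic helix-loop-helix factor, had 6 peaks and a member (chr6:108609221-108609743) that overlapped 0 H3K4me1 regions.

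Members were also present at genes of the factor families searched for. Of the 16 measured ETS family genes, 12 were bound and 3 had a member. Gabpa, which encodes the DNA-binding chain of GABP, had a single peak (chr16:84834899-84835576), a member with 2 ETS matches at the promoter it shares with Atp5j, centred 67 bp from the Gabpa TSS. The members at Elf1 (chr14:79935016-79935649) and Elf4 (chrX:45791982-45792842) were intronic, 1 of 5 peaks at each gene. A consensus match lay 8 bp outside the Elf4 peak. Of 12 AP-1 family genes, 11 were bound, with members at Fos (chr12:86814536-86815342), centred 99 bp from the TSS, and near Jund (chr8:73224354-73224872), 1756 bp from the TSS.

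Many genes of general cell function with a member had members only, as had 470 of all 1073 genes with a member. Whether these lists differed from other bound genes in this was not tested. Cytosolic ribosomal protein genes had 60 of 83 bound and 7 with a member, and all 7, among them Rpl29, Rpl37a and Rps15, had members only. Mitochondrial ribosomal protein genes had 50 of 75 bound, 7 with a member and 5 with members only. Of 85 genes of the respiratory chain and ATP synthase, 55 were bound, 10 had a member and 7 had members only, among them Atp5g1, Atp5j, Ndufa8, Ndufb3 and Cox6b1. Every gene with members only in these ribosomal and respiratory lists had a single Runx3 peak. At such a gene, having a member and having members only are the same thing. Splicing factor genes had 3 with members (Prpf4, Sf3b4 and Snrpa1) of 50 bound, proteasome genes 2 (Psma2 and Psmc4) of 28, and zinc finger genes with Zfp symbols 14 of 155. As a share of bound genes this was 11.7% for cytosolic ribosomal, 14.0% for mitochondrial ribosomal, 18.2% for respiratory, 6.0% for splicing, 7.14% for proteasome and 9.03% for Zfp genes, beside 12.1% of all bound genes. These shares lie on both sides of the background, and with 2 to 14 genes each they are imprecise.

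Marker genes of other blood cells served as a contrast to the NK cell genes. Of 8 B cell markers 3 were bound and 1, Ebf1, had a member as its single peak (chr11:44736482-44737235), in an intron within H3K4me1. Of 8 myeloid markers 3 were bound, and the member counted for Cd68 (chr11:69475659-69476287) was centred 33 bp from the TSS of the neighbouring gene Mpdu1, 3591 bp from that of Cd68. Of 9 T cell markers 4 were bound and 0 had a member. The lists hold coordinates and not expression, so the purity of the sorted cells cannot be read from them.

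Of the 5 widest members, 4 were centred under 1 kb from a TSS. The widest of all, 2338 bp, was centred 114 bp upstream of the TSS of Btf3l4 (chr4:108505164-108507501), with 3 ETS matches, 6 GC boxes and 83 sequences 1 base off the consensus. A consensus match spanned or adjoined its edge, so that a few bp more would have placed this peak with the others. It was followed by Tpm3 (1684 bp, 11 bp from the TSS), Gpbp1l1 (1433 bp, 271 bp), Dusp5 (1431 bp, 1201 bp) and Refbp2 (1417 bp, 90 bp). A consensus match lay 5 bp outside the Gpbp1l1 peak and 26 bp outside the Dusp5 peak. H3K4me1 overlapped all 5 of these peaks and reached the midpoint of the Dusp5 peak only.

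Away from promoters the widest members were mostly within H3K4me1. More than 5 kb from a TSS they were 1339 bp near Xcr1, the gene of a chemokine receptor (chr9:123781125-123782463), 1288 bp in an intergenic stretch of chromosome 6 (chr6:144850995-144852282), 1218 bp in Tnk2, 1214 bp in Spice1 and 1146 bp in Dock2. The first 4 were covered entirely by H3K4me1. The Dock2 peak (chr11:34495032-34496177), in an intron of a gene for lymphocyte migration, had no H3K4me1, a GC content of 34.3% and 0 ETS matches, and the next Runx3 peak was 50947 bp away. A consensus match spanned or adjoined the edge of the Dock2 peak, and likewise that of the 1288 bp peak on chromosome 6. Dock2 was also the widest member without H3K4me1, ahead of Eya2 (947 bp), Tesk1 (906 bp), a peak in an Arf3 intron (895 bp) and Ttc30a1 (852 bp). Printed around their midpoints, the peaks in Eya2 and Arf3 read as follows, with TGYGGG in capitals.
Eya2 intron, chr2:165527298-165527327: gggcaggctggcTGTGGGcagggcgggctg
Arf3 intron, chr15:98574484-98574513: ccactgtgaggaTGTGGGacagctgtgaag

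The member over 5 kb from a TSS with the most ETS matches in its central 200 bp had 16 over its 619 bp (chr3:137515766-137516384, 11376 bp from the nearest TSS, that of H2afz). It overlapped 0 H3K4me1 regions. A stretch at its middle shows, on the minus strand, AGTGGC directly before the ETS sequence AGGAAGT, an order other than that in GGAAGTGG.
Near H2afz, chr3:137516063-137516092: tgcacACTTCCTGCCACTgagctggacact
The 5 members that followed by this measure had 3 to 6 ETS matches in all, and 3 of them, near Ust, 5031414D18Rik and Tmem194b, were wholly within H3K4me1. The other 2, in an Exoc4 intron and near Gm5819, had none.

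The median distance to the next Runx3 peak was 13.5 kb for members and 11.7 kb for the others. The next Runx3 midpoint was within 10 kb for 466 members (44.6%) and for 46.8% of the others, a standardised difference of 0.475 points (-2.67 to 3.62). A peak with the consensus lay in the same H3K4me1 region for 243 members (23.3%), compared with 26.7% of the other peaks that shared a region with another such peak (standardised difference 0.299 points, -2.33 to 2.93). Split by class, the median distance was 19.6 kb for proximal and 8.21 kb for remote members, against 17.7 and 9.23 kb for other peaks.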

How the data were processed

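The authors sequenced 40 bp reads, aligned them to mm9 with ELAND (the submitters' processing notes name CASAVA 1.7), pooled reads from biological repeats and used MACS to call regions over NIS, with the bigger data set scaled down. The authors deposited region coordinates for Runx3 and H3K4me1, in bp, with 0 filled columns of score, p-value or summit. Whether both repeats or the labelled first experiment gave a list cannot be read from it.

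Sequences were read from NCBIM37 (mm9) and genes from GENCODE M1 of that build. Every annotated transcript start counted as a TSS. H3K4me1 overlap needed 1 shared bp. Peaks with and without TGYGGY were compared by differences of shares (Newcombe intervals), also standardised to the members over 10 width deciles by 5 GC classes. Wilson intervals belong to single shares and exact binomial or Poisson intervals to densities. No p-value was computed, since each antibody had 1 list. The interval of the standardised difference was tested on simulated data, and for the ratio of central to outer density only the estimate was. The other intervals were not tested. Copies were searched with minimap2 2.31 (95% identity over 50% of the peak). Python 3.11.15, numpy 2.4.6, scipy 1.17.1 and pysam 0.24.0 were used.

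Members, motifs and gene lists were chosen with earlier results of these data known. Named peaks are members under 1 kb from a TSS of a listed gene, the 5 widest, the 5 widest over 5 kb from a TSS and the 5 widest without H3K4me1. All other members within 5 kb of genes in the lists given as symbols, and GGAAGTGG, GGATGTGG and the comparison by position of the consensus, were added after the values were seen. Alternatives are described in the closing section. The planned removal of repeats was not run, because the sequence marks none (0 lower-case bases).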

Additional observations from a re-analysis of the deposited data

How the results depend on the processing

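The share of Runx3 peaks without the consensus depended on where and how it was searched. It was 6.73% over whole peaks, 4.74% with 100 bp added on either side, 30.8% in the central 200 bp and 12.9% with YGYGGT as the consensus. The differences in H3K4me1 overlap, H3K4me1 over the midpoint and the share under 1 kb from a TSS kept their direction, with intervals that excluded 0, under each alternative run for them (H3K4me1 overlap from -8.57 to -1.17 points, the TSS share from 5.54 to 14.0 points). The plain ETS difference of 3.19 points lost this with the search extended by 100 bp (1.47 points), without chromosome X (3.05 points) and against peaks with exactly 1 match (2.79 points), and was 8.62 points after standardisation over width and GC. Genes with members only numbered 470, 485 and 484 for 5 kb around the gene, 1 kb around a TSS and 20 kb around the gene. Leaving out peaks with a near-identical copy, and standardising H3K4me1 over the midpoint, were alternatives chosen after seeing the data. Leaving out replicates was not possible with 1 list per antibody, and the depth and strength of a peak, which the coordinates do not give, could not be set beside any of these results.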

Other observations

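Counted without any motif model, the commonest 7-base words of the central 200 bp, relative to the outermost 100 bp at both ends, were listed for the members as a description. In remote members GGAAGTG was present in the centre of 122 of 539 peaks (22.6%) and at the ends of 30 (5.57%), and TGTGGGT in 106 (19.7%) and 27 (5.01%). The word GAAGTGG was in 86 (16%) and 22 (4.08%), and GTGTGAA, which overlaps the T-box sequence, in 67 (12.4%) and 20 (3.71%). In proximal members CCGGAAG was in the centre of 96 of 506 peaks (19.0%) and at the ends of 20 (3.95%), CGGAAGT in 74 (14.6%) and 8 (1.58%), and TGGGCGG in 87 (17.2%) and 27 (5.34%).

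The share of Runx3 peaks without the consensus varied little between chromosomes. It was lowest on chromosome 17 (43 of 801 peaks, 5.37%, 95% Wilson interval 4.01 to 7.15%) and highest on chromosome 10 (76 of 916, 8.30%, 6.68 to 10.3%). The intervals of these extremes overlapped. Chromosome X had 12 members among 200 Runx3 peaks (6.0%, 3.47 to 10.2%).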
